A study of Mus musculus with 8 samples.

Results

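The Obox genes encode homeodomain transcription factors of the mouse oocyte and early embryo. The 5 described here, Obox1, Obox2, Obox3, Obox5 and Obox6, were found by symbol in the RefSeq gene table of the mouse, GRCm38.p6, and all 5 of 5 matched, among 21887 protein-coding genes on the assembled chromosomes. All lie on chromosome 7 (mm10), Obox2 at 15388851 to 15398545, Obox1 at 15547257 to 15556846, Obox3 at 15625306 to 15639777, Obox5 at 15750370 to 15759274 and Obox6 at 15833250 to 15839679. Every open region within these genes and 50 kb on each side was taken. The windows merged into 3 pieces of 109.7, 192.5 and 189.3 kb, called the Obox locus below, and they held 18 of the 48730 regions of Ubc9-depleted cells and 5 of the 46847 regions of Ubc9-control cells. The locus held 6 of the 58039 regions of H1 triple-knockout cells and 1 of the 55489 regions of H1 wild-type cells.

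Obox transcripts are made in the growing oocyte and around the 2-cell stage, when the embryonic genome is switched on, and OBOX proteins take part in that activation in the mouse. The family resembles the Otx and Crx homeodomain proteins. Cultures of embryonic stem cells contain rare cells that resemble the 2-cell embryo and switch on genes of that stage. SUMO, a small protein attached to other proteins by the conjugating enzyme Ubc9, is known as a modifier of many chromatin repressors, and linker histone H1 binds between nucleosomes and compacts chromatin.

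ATAC-seq, which marks accessible DNA by where a transposase can cut it, was run on 8 samples of mouse embryonic stem cells, 2 replicates in each of 4 groups, all grown for 4 passages in 2i/LIF, a medium with kinase inhibitors and the cytokine LIF. The Ubc9-depleted cells (v6.5 line) carry a TET-OFF system in which doxycycline, given for 72 hours, depletes Ubc9, and the Ubc9-control cells are of the same line. The triple-knockout cells are H1.2-/-H1.3-/-H1.4-/-, and the H1-WT cells are their wild-type counterpart. Both H1 lines were taken from earlier published work, and the labels do not say whether a line is 1 clone. The labels name doxycycline for the depletion alone, so the drug and the loss of Ubc9 cannot be told apart. Each group is represented by 1 region list that the authors made from both replicates, and differences therefore have no replicate check and no p-value. A region is called shared when at least 1 bp of it overlaps a region of the other list of its pair, and without a partner otherwise. The score is the authors' own value per region, and it ranks regions within a list only.

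The labels were first set against the lists. In triple-knockout cells no region reached H1f2 or H1f3 (0 bp of either), against 725 bp of H1f2 and 242 bp of H1f3 in wild-type cells. Of H1f4, 20 bp were covered in triple-knockout and 38 bp in wild-type cells. Both lists had a region within 1000 bp of the start of each of the 3 genes. Of 12 stem cell marker genes, 9 had a region within 1000 bp of an annotated start in the Ubc9-depleted list and 10 in the Ubc9-control list, and 9 and 10 in the H1 triple-knockout and wild-type lists. Sox2, Nanog, Klf4, Zfp42, Klf2, Tbx3, Sall4 and Tfcp2l1 had one in all 4 lists. Pou5f1 had none in triple-knockout cells alone, and Utf1 had one in Ubc9-control and H1 wild-type cells only. Esrrb had one in triple-knockout cells only, and Lin28a had none in any list. Of 10 fibroblast or feeder markers, 1 had a start region in each list, Col1a1 in the Ubc9 pair and Col1a2 in the H1 pair, while Col3a1, Thy1, Dcn, Lum, Postn, Pdgfrb, Twist2 and Fap had none.

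Ubc9-depleted cells had more open regions around the Obox genes than control cells, and 15 of their 18 regions had no counterpart in control cells. The question behind this pair is how chromatin accessibility depends on SUMO conjugation. The 18 regions of the depleted list covered 7620 bp of the locus and the 5 of the control list 1409 bp. Of the 18, 15 were without a partner, or 83.3%, where 45.6% of the whole depleted list had none. The exact 95% binomial interval, 58.6 to 96.4, covers counting error only and takes the regions as independent. Of the 5 control regions 2 were without a partner (40.0%, 5.27 to 85.3), where 43.3% of the whole control list had none. Both of those control regions lay beside Obox6 in the neighbouring genes Crx and Crxos.

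**Figure D1:**
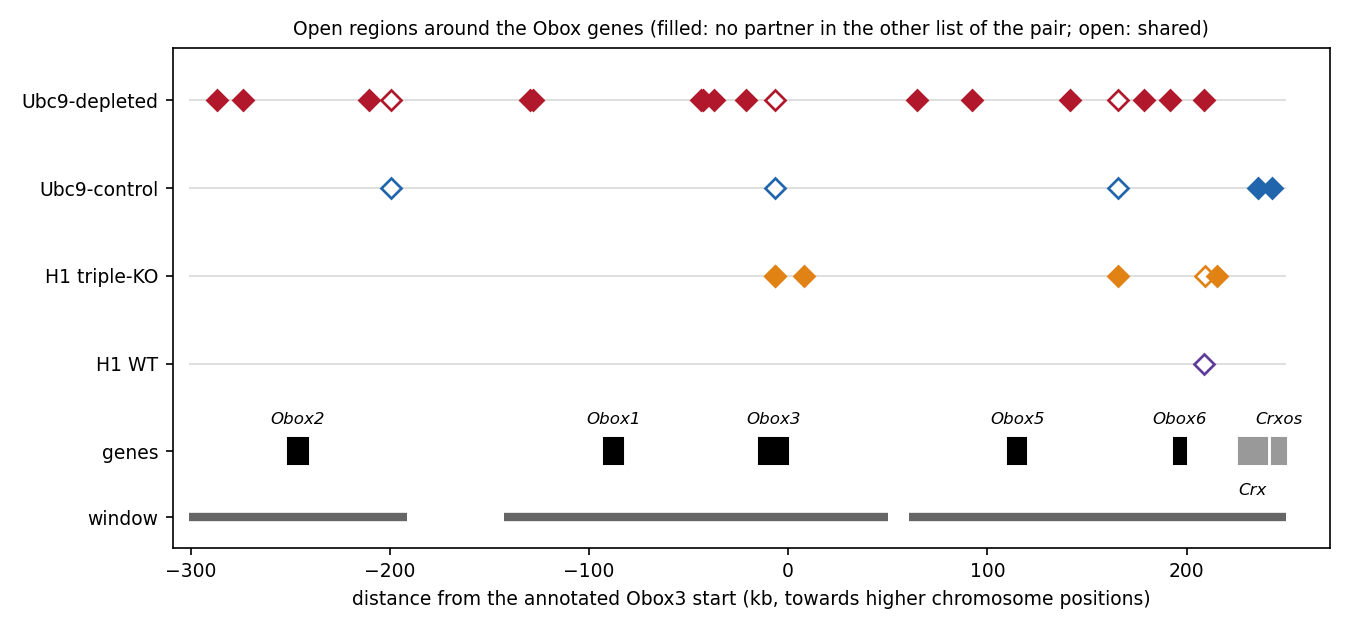
Open regions of the 4 lists at the Obox locus. The horizontal axis is the distance from the annotated start of Obox3 in kb, each diamond is the midpoint of a region (close neighbours overlap), filled where the paired list has no partner for it, black and grey boxes are Obox and neighbouring genes, and the lowest row shows the 3 windowed pieces. The 18 Ubc9-depleted regions lie around all 5 Obox genes. None lies at Crx or at the part of Crxos inside the windows, where 2 of the 5 Ubc9-control regions lie.

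Counted gene by gene, Ubc9-depleted cells had 4 regions within 50 kb of Obox2, 5 at Obox1, 5 at Obox3, 4 at Obox5 and 4 at Obox6. Control cells had 1 region at Obox2, 0 at Obox1, 1 at Obox3, 1 at Obox5 and 3 at Obox6. These windows overlap, so the 3 regions between Obox1 and Obox3 and the region between Obox5 and Obox6 are each counted at both neighbours, and the genes are not independent of each other. The depleted count was thus at or just above its median over all protein-coding genes, 4 regions, while the control count was below its own median, also 4, at every member.

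Regions in the depleted list alone numbered 3 at Obox2, 5 at Obox1, 4 at Obox3, 3 at Obox5 and 3 at Obox6, a median of 3 where the median of all protein-coding genes was 1. At least 1 such region was found at all 5 members, as at 66.9% of all genes, so their mere presence was common. At least as many as at Obox1 were found at 4.06% of genes, at least as many as at Obox3 at 8.53%, and at least as many as at each of the other 3 members at 18.4%. A region of any kind was within 50 kb of all 5 members in depleted cells (93.3% of all genes) and of 4 members in control cells (90.2%). Regions in the control list alone were found at Obox6 alone, 2 of them, where 65.4% of all genes had at least 1.

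Close to the genes there was less. In depleted cells 2 of the 5, Obox3 and Obox6, had a region within 10 kb, as did 77.8% of all genes, and in control cells 1, Obox3, against 75.9%. The same 2 had a depleted-only region within 10 kb (33.2% of all genes) and 0 had a control-only one (37.3%). Of the 18 depleted regions 1, that inside Obox3, lay within a gene or pseudogene of the table.

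**Figure D2:**
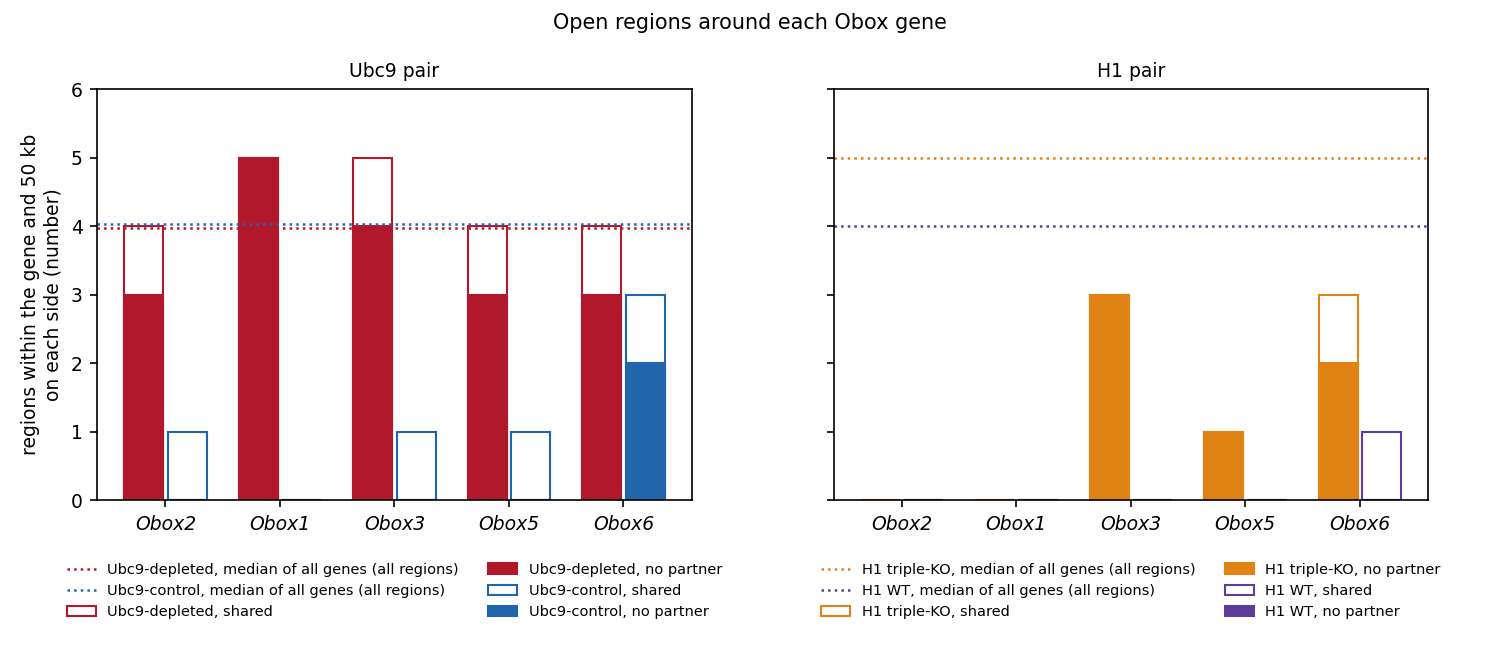
Number of open regions in each Obox gene or up to 50 kb from it, in the Ubc9 pair (left) and the H1 pair (right). Filled bars are regions without a partner and open bars on top of them shared regions, and dotted lines give the median over all protein-coding genes, 4 for both Ubc9 lists, 5 for H1 triple-knockout and 4 for H1 wild-type cells (the lines at 4 in the left panel are drawn slightly apart). At Obox1 all 5 depleted regions lacked a partner, and no region of the other lists lay in that window.

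**Figure D3:**
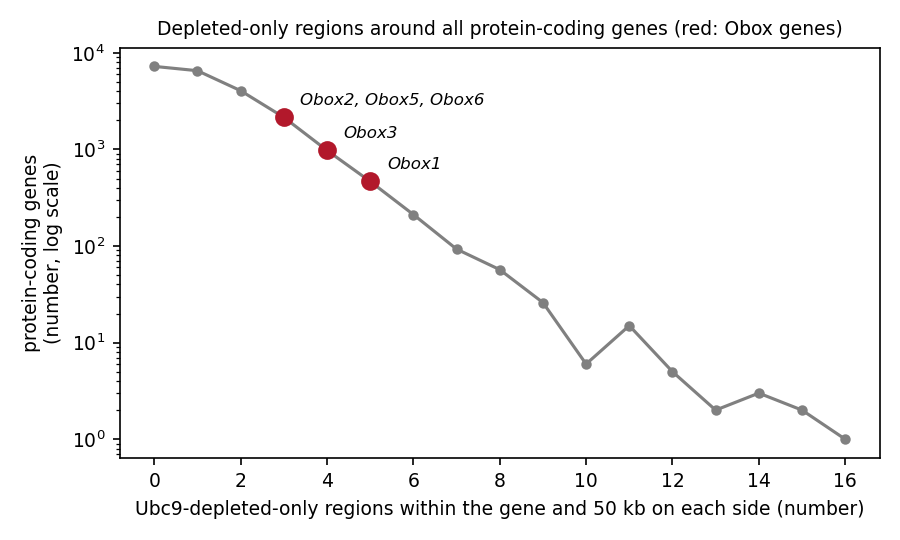
Number of protein-coding genes (log scale) by the number of Ubc9-depleted-only regions in it or up to 50 kb away, with the Obox genes in red. Obox2, Obox5 and Obox6 stand at 3, Obox3 at 4 and Obox1 at 5 regions, and the highest count of any gene was 16.

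Obox3, which among the 5 was the only gene with a region inside it, carried the highest-scoring region of the locus. In depleted cells this region ran from 15632657 to 15633522, 866 bp wide, with a score of 785.6, and 1.27% of the depleted list scored higher. In control cells the shared region ran from 15632860 to 15633283, 424 bp wide, with a score of 203.2, and 25.9% of the control list scored higher. The control region lay wholly within the depleted one, which reached farther on both sides. Its midpoint was 6.69 kb downstream of the annotated start of Obox3, a gene on the minus strand. The gene table gives no exons, so the region was not placed in an exon or intron. A further depleted-only region at 15618450 to 15618707, 6.60 kb past the other end of Obox3, had a score of 58.9, among the lowest of its list, where 97.5% scored higher.

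Between Obox1 and Obox3 lay a group of 3 depleted-only regions within 7.14 kb. The middle one, at 15596817 to 15597587, was 771 bp wide and had a score of 455.7, and 6.96% of the depleted list scored higher. Among the 22218 depleted-only regions of the genome, 1.47% scored higher. Its neighbours at 15595829 to 15596186 and at 15602500 to 15602969 had scores of 111.0 and 223.5. No region of the control list or of either H1 list overlapped any of the 3. On the other side of Obox1, 35.6 and 36.8 kb below its start, 2 more depleted-only regions had scores of 74.7 and 70.8. Obox1 itself had no region of any list within 10 kb.

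Obox5 likewise had no region of any list within 10 kb. Below its start, a depleted-only region at 15704190 to 15705123 was 934 bp wide, the widest of the locus, with a score of 419.1, and 2.27% of depleted-only regions of the genome scored higher. Nearer to the gene, 18.2 kb below its start, a depleted-only region of 733 bp had a score of 117.3. Past its end, 21.8 kb away, another had a score of 104.8. The region between Obox5 and Obox6 was shared, at 15805169 to 15805715 in depleted cells (547 bp, score 199.2) and at 15805322 to 15805538 in control cells (217 bp, score 64.7). Of the depleted list 29.4% scored higher, and of the control list 95.2%. As at Obox3, the control region lay wholly within the depleted one.

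Obox6, a member also used as a reprogramming factor in mouse cells, was the only Obox gene with a region within 2500 bp of an annotated end. This depleted-only region lay at 15831331 to 15831665, 1.59 kb from the lower end of the gene, with a score of 72.2. Another depleted-only region, 8.93 kb past the upper end, had a score of 64.4 and also overlapped regions of both H1 lists. One more, 14.9 kb below the gene, had a score of 81.0. Control cells had no region within 10 kb of Obox6. Obox2 had no region of any list within 10 kb, and its depleted-only regions, 35.5 and 22.6 kb below its start and 30.5 kb past its end, had scores of 98.7, 102.3 and 71.9. Its shared region, 41.8 kb past the end, had nearly the same extent in depleted and control cells, 210 and 230 bp, with scores of 81.0 and 78.6.

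Most depleted-only regions ranked low in their list, beside a few that ranked high. The median score of the 18 depleted regions was 100.5, below the 128.4 of the whole depleted list, and 9 of the 18 reached a score of 100, where 65.7% of the list did. The 15 depleted-only regions had a median of 98.7, against 105.6 for all depleted-only regions. Among the top 10% of the list were 3 of the 18, too few to set apart from that share, and 2 of these 3 had no partner. Of the 4088 depleted regions that scored above the lower of these 2 (419.1), 504 had no partner. The 5 control regions had a median score of 78.7, where the control list had 125.7, and none was in its top 10%.

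**Figure D4:**
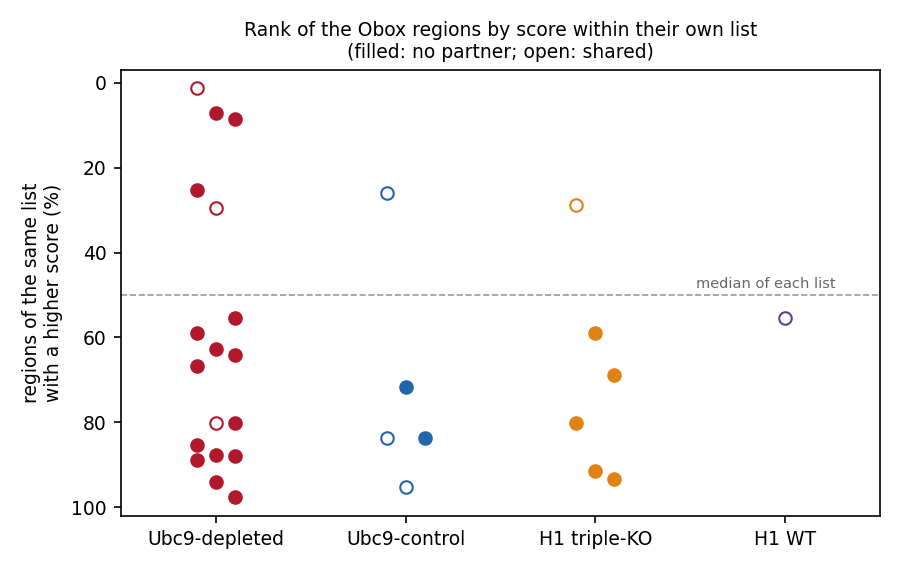
Rank of each region of the Obox locus by score within its own list, as the percent of that list scoring higher (0 at the top). Each point is a region, filled where the paired list has no partner for it, and the dashed line is the median of each list. In the Ubc9-depleted list 3 regions lie above 10%, while the highest of the Ubc9-control list is at 25.9%, of the H1 triple-knockout list at 28.7% and of the H1 wild-type list at 55.4%.

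None of the 5 Obox genes had a region within 1000 bp of an annotated start in any list (for Obox6, whose strand was not at hand, of either end). A start region was found at 55.2% and 53.9% of all protein-coding genes in the Ubc9-depleted and Ubc9-control lists and at 52% and 52.4% in the H1 triple-knockout and wild-type lists. Start regions in 1 list only, 0 among the members, were found at 5.03% of genes for depleted, 3.79% for Ubc9-control, 4.08% for triple-knockout and 4.54% for wild-type cells. The start sequences are shown because they tell how alike the copies are. RefSeq promoter sequences (GRCm38.p6, 250 bases before and 50 after the start, 5′ to 3′) were at hand for 4 of the 5 members, with the longest stretch common to all 4 in capitals.
Obox1, chr7:15547007-15547306, plus strand: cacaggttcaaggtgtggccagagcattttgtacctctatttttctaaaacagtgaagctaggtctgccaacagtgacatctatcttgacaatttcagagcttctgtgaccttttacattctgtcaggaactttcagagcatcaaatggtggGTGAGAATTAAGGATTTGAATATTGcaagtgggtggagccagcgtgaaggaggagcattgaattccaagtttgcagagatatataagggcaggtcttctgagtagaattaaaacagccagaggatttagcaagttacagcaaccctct
Obox2, chr7:15388601-15388900, plus strand: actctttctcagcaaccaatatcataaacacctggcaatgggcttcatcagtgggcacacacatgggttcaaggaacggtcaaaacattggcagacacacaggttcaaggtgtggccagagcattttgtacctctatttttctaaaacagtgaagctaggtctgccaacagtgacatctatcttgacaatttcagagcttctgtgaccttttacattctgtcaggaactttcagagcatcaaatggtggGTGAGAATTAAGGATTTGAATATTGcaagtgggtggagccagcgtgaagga
Obox3, chr7:15639728-15640027, minus strand: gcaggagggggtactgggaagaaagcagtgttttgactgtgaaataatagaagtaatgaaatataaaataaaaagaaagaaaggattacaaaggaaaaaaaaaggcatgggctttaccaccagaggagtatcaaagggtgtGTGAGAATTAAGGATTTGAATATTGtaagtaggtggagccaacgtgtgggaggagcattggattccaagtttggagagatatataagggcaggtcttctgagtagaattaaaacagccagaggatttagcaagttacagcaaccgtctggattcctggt
Obox5, chr7:15750120-15750419, plus strand: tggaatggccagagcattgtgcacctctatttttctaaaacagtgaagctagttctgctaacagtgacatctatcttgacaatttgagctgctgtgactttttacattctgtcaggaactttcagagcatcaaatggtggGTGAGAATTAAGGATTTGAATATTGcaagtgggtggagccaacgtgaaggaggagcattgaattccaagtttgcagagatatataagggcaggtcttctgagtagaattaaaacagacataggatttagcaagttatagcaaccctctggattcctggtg
The common stretch is 25 bases long, ends 73, 84 and 85 bases before the annotated start in Obox1, Obox3 and Obox5, and spans the start in Obox2. Only 5 of the 32851 promoters held it, those of the 4 members and of Obox7, another gene of the family. Obox1 and Obox2 shared an unbroken run of 203 bases, Obox5 shared 82 with each of them, and Obox3 shared 70 with Obox1, 42 with Obox5 and 25 with Obox2. These lengths also depend on where the annotated starts place the sequences. The run of 203 reaches from the first base of the Obox1 sequence to the last of Obox2. The run of 70 lies past the common stretch, beyond where the Obox2 sequence ends, so Obox2 could not be compared there. The motif TATATAA, searched on both strands, was in 3 of the 4 (Obox1, Obox3 and Obox5) and in 3.24% of all promoters. In these 3 it lies past the common stretch, beyond where the Obox2 sequence ends, so the search could not show whether Obox2 has it there. The motif GGATTA, which Otx-like and OBOX homeodomains bind, was in Obox3 alone and in 7.06% of all promoters. Reads from stretches that copies share may not be placed uniquely. The sources used here do not say how the authors treated them, and the part of read placement in the absence of start regions was not tested.

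At the Crx and Crxos end of the locus the Ubc9 pair had 2 regions, both in the control list alone and both of low rank. Crx encodes a homeodomain factor of photoreceptors, and Crxos a homeodomain protein found in the early embryo and in stem cells. A control-only region at 15875567 to 15875818 within Crx had a score of 92.3, and 71.7% of the control list scored higher. Another at 15882552 to 15882837, over the first annotated start of Crxos, had a score of 78.7, and 83.7% scored higher. Both lay within 10 kb of each gene, and 37.3% of all protein-coding genes had at least 1 control-only region that near. At a later annotated start, past the edge of the locus, Crxos had a region in both Ubc9 lists. Its scores, 100.7 in the depleted and 183.2 in the control list, are not comparable between lists. Neither H1 list had a Crxos start region. Depleted cells had 0 regions within 10 kb of Crx, against 2 in control cells. Crxos had 3 depleted regions within 10 kb, all shared and all past the edge of the locus at 15889679, against 5 control regions. Of these 5, 2 lay within the locus. The first Crxos start is shown because it carries one of the only 2 control-only regions of the locus, of whose 286 bp the 115 that fall within the promoter are in capitals (RefSeq, GRCm38.p6).
Crxos, chr7:15882367-15882666, plus strand: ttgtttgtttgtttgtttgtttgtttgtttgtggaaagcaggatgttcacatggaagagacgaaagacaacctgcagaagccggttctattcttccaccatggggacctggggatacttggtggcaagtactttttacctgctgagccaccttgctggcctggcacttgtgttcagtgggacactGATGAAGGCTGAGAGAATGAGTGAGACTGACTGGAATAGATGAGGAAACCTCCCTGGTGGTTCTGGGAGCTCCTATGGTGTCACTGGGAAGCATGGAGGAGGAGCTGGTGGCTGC
By which lists held regions within 10 kb, Crx (control cells alone) matched none of the 5 members. Crxos matched none either, since it had regions in all 4 lists. Obox1, Obox2 and Obox5 matched each other, with none in any list.

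The H1 pair asks how accessibility depends on the 3 linker histones. There the locus again had more regions in the perturbed cells, but few in all. Triple-knockout cells had 6 regions covering 1310 bp, against 1 region of 308 bp in wild-type cells. Of the 6, 5 were without a partner (83.3%, 35.9 to 99.6), where 31.4% of the whole triple-knockout list had none, and the interval is wide because so few regions were counted. Among the 5 are neighbouring pieces of 5 and 151 bp inside Obox3 that form 1 site, so the regions are not independent. The wild-type list had 0 of 1 without a partner, where 28.8% of the whole list had none.

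Triple-knockout-only regions numbered 3 within 50 kb of Obox3, 1 at Obox5 and 2 at Obox6, and 0 at Obox1 and Obox2, a median of 1 that equals the median of all protein-coding genes. At least 1 was found at 3 of the 5 members, against 67% of all genes. Triple-knockout cells had 3 regions in all at Obox3, 1 at Obox5 and 3 at Obox6. Thus 3 of the 5 had a region within 50 kb in triple-knockout cells (91.5% of all genes), and 1, Obox6, in wild-type cells (91.2%), where the median gene had 4. Within 10 kb, 2 members had a triple-knockout region (77.1%), 1 a wild-type region (76.1%), 1 a triple-knockout-only (38.6%) and 0 a wild-type-only one (34.1%).

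Inside Obox3, 2 triple-knockout-only regions of 5 and 151 bp, with scores of 63.2 and 66.2, lay within the extent of the Ubc9-depleted and Ubc9-control region, and over 90% of their list scored higher. Upstream of the Obox3 start, 7.90 kb away, a triple-knockout-only region had a score of 83.0 and no counterpart in the Ubc9 pair. Between Obox5 and Obox6 a triple-knockout-only region at 15805375 to 15805621 had a score of 119.0 and overlapped the region shared by the Ubc9 pair. Past Obox6, 15.4 kb away, another had a score of 100.8. The region common to both H1 lists lay 8.93 kb past Obox6, with a score of 209.9 in triple-knockout cells, where 28.7% of the list scored higher, and of 120.2 in wild-type cells, where 55.4% did.

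Joined over the 4 lists, the regions formed 22 sites. Of these 14 were in the Ubc9-depleted list alone, 2 in the Ubc9-control list alone and 2 in the triple-knockout list alone. The regions inside Obox3 and between Obox5 and Obox6 made up the 2 sites held by both Ubc9 lists and the triple-knockout list but not by wild-type cells. How often joined sites of the whole lists show these patterns was not counted. The site counts therefore have no genome-wide share beside them. Of the 15 depleted-only regions, 1 overlapped a triple-knockout region and 1, the same one beside Obox6, a wild-type region (6.67%, 0.169 to 31.9, each), where 12.1% and 10.1% of all depleted-only regions did.

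Genes related to Obox by sequence or by stage were counted at their starts. Of 24 genes of the 2-cell stage in the table, 12 had a start region in depleted cells and 4 in Ubc9-control cells, with 8 in depleted cells only and 0 in control cells only, where 5.03% and 3.79% of all protein-coding genes had one. The 8 include Usp17lb (score 86.6) and Zfp352 beside Zscan4 genes. In H1 triple-knockout and wild-type cells 3 each had one. The list stands for 2-cell-like cells, and the Zscan4 genes and Zfp352 were known from earlier results to differ in this pair. Of the 24, 12 had no start region in either Ubc9 list, among them Tdpoz1 to Tdpoz5, and 4 had one in both. The part of such cells in the Obox regions was not tested, and more cells of that type cannot be told apart from chromatin opened in every cell. Of 19 homeobox relatives, 0 had a depleted-only and 2 a Ubc9-control-only start region, counts too small to set apart from those shares. The 2 were Hesx1 (96.5), a transcriptional repressor needed for forebrain and pituitary development, and Otx2 (67.8), a factor of the primed state and the anterior embryo. Gsc, an organizer gene, had a triple-knockout-only (127.5) and Hesx1 a wild-type-only start region (82.5), 1 of 19 each, where 4.08% and 4.54% of all genes had one. Duxf3, the Dux activator of 2-cell genes, looked at after its values were seen, had a start region in all 4 lists. Its scores were 489.1 and 263.8 in the Ubc9-depleted and Ubc9-control lists and 316.8 and 362.8 in the triple-knockout and wild-type lists. These scores are not comparable between lists. Of 21 activators and repressors of the 2-cell programme, Ehmt2 (60.8), a histone methyltransferase, had a depleted-only start region, and Klf17 (72.9) and Dppa3 (105.7), both maternal factors, a Ubc9-control-only one. These are 1 and 2 of 21, counts too small to set apart from the shares of 5.03% and 3.79% over all genes. In the H1 pair 0 differed.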

How the data were processed

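Per the submitters' processing notes, the authors' tools were Picard, Bowtie2, CASAVA 1.8.2 and MACS 1.4.2-1, and the build was mm10. Not given in the sources used here are tool settings, read shifting for the transposase and the handling of reads with several placements. Per the labels' design text, each of the 4 deposited lists combines both replicates of its group. The deposited score has no stated unit. Its minimum of 50 fits the scaled minus log10 of p that MACS writes, and the authors' score was used only within a list. Read depth is unknown, and deeper libraries give more regions.

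Regions were overlapped (minimum 1 bp) in Python 3.11.15 with pandas 2.3.3 and numpy 2.4.6, and exact binomial intervals came from scipy 1.17.1. The overlap steps were tested on simulated data. Gene bounds, starts and promoters came from RefSeq (GRCm38.p6, which has mm10 coordinates). All annotated starts of a gene were used, and both ends where no strand was at hand. Members, gene lists and the naming rule (members, differing neighbours, list genes with a start region in 1 list only) were chosen with earlier results of these data known. Unmatched list genes numbered 6 of 25 homeobox relatives, 3 of 27 for the 2-cell stage and 0 of the others. Alternatives were a score minimum, equal list sizes, other flanks, a 50% overlap and wider start windows.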

Additional observations from a re-analysis of the deposited data

How the results depend on the processing

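The surplus of regions in perturbed cells kept its direction under every alternative in both pairs, with the numbers small. Counts below run Ubc9-depleted and Ubc9-control, then H1 triple-knockout and wild-type. With a score of at least 100 the locus held 9 and 1, then 3 and 1 regions, of which 7 and 0, then 2 and 0 had no partner. With the 20000 top-scoring regions of each list it held 5 and 1, then 1 and 0, of which 4 and 0, then 1 and 0 had none. With flanks of 10 kb it held 4 and 1, then 4 and 1, of which 3 and 0, then 3 and 0 had none. With flanks of 100 kb it held 26 and 11, then 11 and 5, of which 18 and 3, then 6 and 0 had none. When a partner had to cover 50% of a region, 17 and 2, then 5 and 0 had none. For the other flanks the shares of the whole lists without a partner stay at 45.6% and 43.3%, then 31.4% and 28.8%. Under the score minimum, equal list sizes and 50% overlap these shares were not counted, so those counts have no background. Filling the gaps between the windows, chosen after seeing the data, gave 19 and 5, then 6 and 1. Start windows of 2500 bp gave 1 member, Obox6, with a region in depleted cells only, and 0 in the H1 pair, where 0 stood otherwise, also with both ends of every member. The cause of these moves is the construction of each setting, fewer or more regions. No paired analysis was possible because each group has 1 list pooled from its replicates and no result comes from a test, and no replicate could be left out. Depth limits what an empty window means, since weak regions may go uncalled.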

Other observations

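The Obox locus borders a longer run of the family on chromosome 7, which was looked at after the values above were seen. The table lists 38 Obox4 pseudogenes, 7 Obox3 pseudogenes and 6 protein-coding Obox genes there. In the 0.821 Mb from the first copy, at 14517971, to the edge of the locus at 15338850, the Ubc9-depleted list held 20 regions, 17 of them without a partner (85.0%, exact 95% interval 62.1 to 96.8), where 45.6% of the whole list had none. Several of these regions lie at a repeated place before Obox4 copies, as given below. They are therefore not independent, and the interval covers counting error only. The control list held 4, with 1 without a partner (43.3% of the whole list). The H1 triple-knockout list held 5 regions there, 2 without a partner (31.4% of the whole list), and the wild-type list 4, with 1 (28.8%). Obox7, the protein-coding gene in this run, had no start region in any list.

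Over the whole run of the family, the locus included, some regions repeated at the same place relative to a copy. In depleted cells 10 regions, 8 of them without a partner, began between 2555 and 2703 bp below the lower end of an Obox4 pseudogene, among them those before Obox4-ps17 (2648 bp, score 119.5), Obox4-ps19 (2628 bp, 64.9), Obox4-ps20 (2602 bp, 97.7) and Obox4-ps23 (2703 bp, 112.2). The regions before Obox4-ps27 (2555 bp) and Obox4-ps28 (2591 bp) are the 2 described past the end of Obox2. Control cells had 2 such regions, at 2645 and 2601 bp, both shared. Triple-knockout cells had 1, before Obox4-ps21 (2664 bp, score 112.3), and wild-type cells had 0. Scores of the 10 ran from 56.9 to 119.5, all below the median of 128.4 of the whole depleted list. The search covered the 3000 bp below each copy. Another depleted-only region found by it began 543 bp before Obox4-ps13 (score 70.8) and is not among the 10. The copies from Obox4-ps16 to Obox4-ps23 follow each other at 11268 to 11339 bp, and 6 of the 10 regions precede copies of that run. The sources used here do not say how reads were placed among these copies. The part of read placement in which copy and which list a region fell was not tested.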
